A study of Homo sapiens with 4 samples.

Results

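The 10 genes described here encode the cohesin ring, the proteins that load, hold and release it, and CTCF. They were chosen by gene name, and all 10 were found among the 60671 genes of the deposited table. Of these, 7 reached a mean of 1 TPM over the 4 libraries and were tested, where TPM is the abundance of a transcript scaled by its length and by the total of its library, and the remaining 3 (NIPBL, PDS5B and STAG1) lay below that level. RNA with a poly(A) tail was sequenced from H9, an established line of human embryonic stem cells grown undifferentiated and untreated. The control group held 2 libraries of H9 cells labelled as control. The KO+OE group held 2 libraries of H9 cells that carried a CRISPR/Cas9 edit of CFIm25, a cleavage and polyadenylation factor encoded by NUDT21, and that expressed 3Flag-CFIm25 from a lentivirus. The labels name the edit a knockout for the samples and a knockdown for the series, and the study describes a shortened protein at a low level in clones, 1 of which received the tagged protein. Nothing states that the 2 libraries of a group came from separate cultures, so that the p-values below measure only the spread between these libraries, which may be technical.

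Cohesin is a ring built from the ATPases SMC1A and SMC3, the kleisin RAD21 that closes them, and a STAG subunit. NIPBL with MAU2 loads it on DNA, PDS5A and PDS5B bind the closed ring, and WAPL releases it. The ring holds sister chromatids together until anaphase and extrudes chromatin loops that commonly stop at CTCF, a zinc-finger protein bound to DNA.

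The TPM values of a library summed to between 986853 and 987078. NUDT21 had 161 and 152 TPM in the control libraries and 162 and 157 TPM in the KO+OE libraries. These ranges overlapped, and the TPM of the gene does not separate the edited transcript from that of the lentiviral copy. The pluripotency markers were present in every library, led by POU5F1 at a mean of 2189 TPM and LIN28A at a mean of 522 TPM. Of the germ-layer and fibroblast markers, SOX17 and LUM were listed at 0 in all 4 libraries, and COL3A1 did not exceed 0.02 TPM. NES, COL1A1, COL1A2, GATA6 and TBX6 were present at means of 80.8, 54.5, 13.6, 6.5 and 2.16 TPM. The other markers of these lists had means under 1 TPM. Because the RNA came from bulk cultures, fewer cells that express a gene and less of its RNA per cell cannot be told apart.

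CTCF stood above the cohesin genes in all 4 libraries. Its mean was 11.02 TPM, 2.24-fold above that of RAD21, the next gene. RAD21 and SMC1A followed with means of 4.93 and 4.19 TPM, and their ranges over the 4 libraries overlapped. A gap of 3.01-fold separated SMC1A from PDS5A, SMC3, WAPL and STAG2, which had means of 1.395, 1.21, 1.17 and 1.07 TPM and overlapped with their neighbours in this order. A further gap of 2.31-fold separated STAG2 from NIPBL, PDS5B and STAG1, at means of 0.463, 0.283 and 0.258 TPM, where neighbours again overlapped. The subunits of one ring were therefore listed at unequal mRNA levels. TPM is scaled by transcript length but not by base composition, which limits that comparison between genes.

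**Figure D1:**
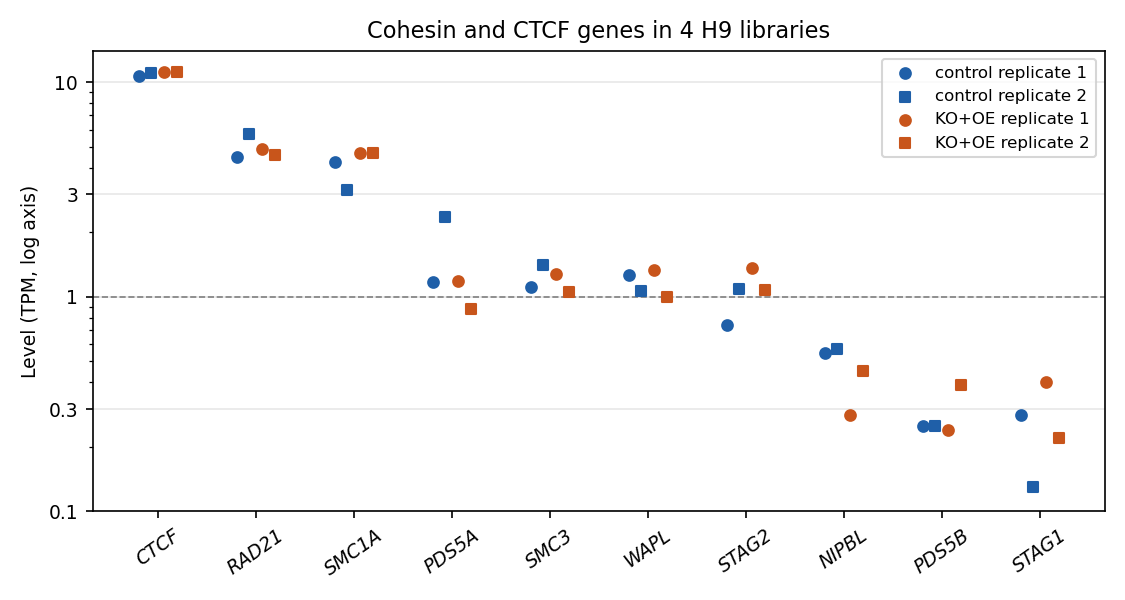
Level in TPM (log axis) of each of the 10 genes, ordered by mean, with 1 point per library (blue, control; orange, KO+OE; circles, replicate 1; squares, replicate 2); the dashed line marks 1 TPM, the minimum mean for testing. CTCF lies above 10 TPM in all 4 libraries, and NIPBL, PDS5B and STAG1 lie below 1 TPM in all 4.

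The summed level of the 10 genes was 24.8 and 26.8 TPM in the control libraries and 26.9 and 25.5 TPM in the KO+OE libraries. CTCF made up 41.1% to 43.7% of that sum. Control cells averaged 25.8 ± 1.38 TPM for the sum and KO+OE cells 26.2 ± 0.955 TPM (mean ± SD, n = 2 each, exact two-sided permutation test, p = 0.667, where 2 against 2 cannot go below 0.333). The difference was thus smaller than the spread between replicates.

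None of the 7 tested members was called in the comparison of KO+OE with control cells by limma at an adjusted p under 0.05, and none had an unadjusted p under 0.05. Over all 12319 genes tested, 1 gene or 0.00812% passed the first threshold and 656 genes or 5.33% the second. The 1 gene, named here after its values were seen, was AC125388.1, annotated in the deposited table as a pseudogene of RPL39, listed at 0 in both controls, against 8.63 and 8.22 TPM for KO+OE. Of the tested members, 3 had a higher and 4 a lower mean log2 value in KO+OE cells. Their median log2 fold change of TPM + 1 was -0.00, and that of all genes tested was -0.01. The median of the members ranged from -0.12 without KO+OE replicate 1 to 0.05 without control replicate 2. Without KO+OE replicate 1, STAG2 fell below a mean of 1 TPM and was not part of that median. The groups did not overlap for 2 members that were higher in KO+OE cells, CTCF and SMC1A, where 14.5% of all genes tested were higher without overlap. Of the 7 tested members, 0 were lower without overlap, against 19.6% of all genes tested.

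**Figure D2:**
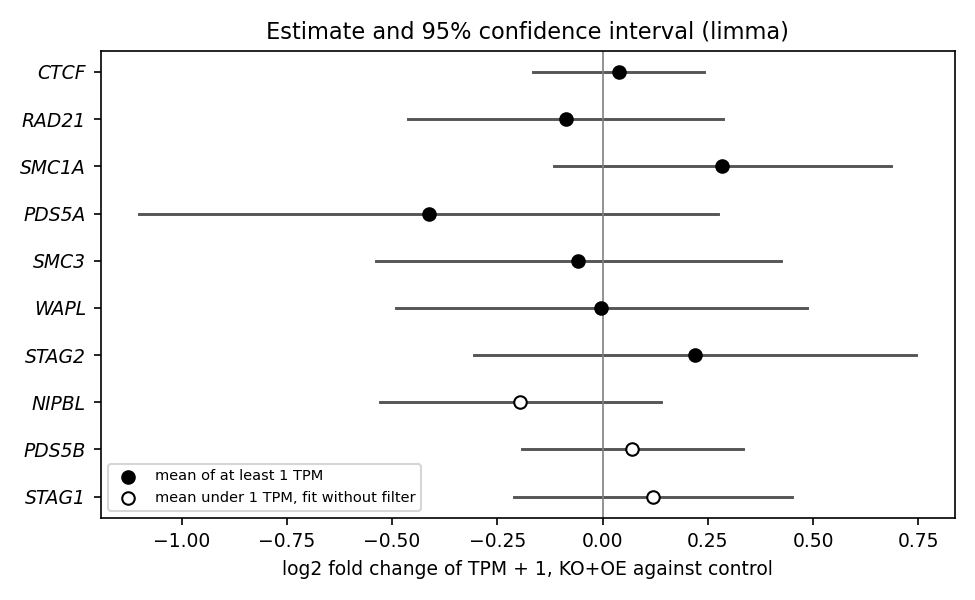
Log2 fold change of TPM + 1 in KO+OE against control cells for each member (points) with the 95% confidence interval from limma (lines); open points had a mean under 1 TPM and come from the fit without a filter. Every interval includes 0, and that of PDS5A is the widest, from -1.10 to 0.27.

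The SMC ATPases form the arms of the ring, and both hold a Walker A motif, the loop that binds ATP (glycines in a fixed spacing before a lysine and a serine or threonine). SMC1A (ENSG00000072501, chrX:53374149-53422728, GRCh38) and SMC3 (ENSG00000108055, chr10:110567695-110606048, GRCh38) are shown for codons 28 to 47 of their coding sequences, with the codons of the motif in capitals, to set the base composition of the 2 transcripts side by side. Of the 60 bases, 29 were G or C in SMC1A and 19 in SMC3. The SMC1A stretch spans exons 1 to 2 and the SMC3 stretch exons 2 to 4 of the canonical transcripts of GENCODE release 44.
SMC1A: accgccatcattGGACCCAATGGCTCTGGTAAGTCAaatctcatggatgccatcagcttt
SMC3: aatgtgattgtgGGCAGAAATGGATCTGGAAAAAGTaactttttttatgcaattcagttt

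SMC1A measured 4.24 and 3.16 TPM among controls, against 4.67 and 4.70 TPM for KO+OE. Both KO+OE libraries lay above both control libraries, with the lowest value in control replicate 2. The log2 fold change was 0.28 (95% confidence interval -0.12 to 0.68, adjusted p = 0.937), and it was 0.45 without control replicate 1, then at an unadjusted p under 0.05, and 0.12 without control replicate 2. A pseudocount of 5 gave 0.16. SMC3 measured 1.11 and 1.4 TPM among controls, against 1.28 and 1.05 TPM for KO+OE. Its groups overlapped, with a log2 fold change of -0.06 (-0.54 to 0.42, adjusted p = 0.990). The ratio of SMC3 to SMC1A within a library was 0.262 and 0.443 in control and 0.274 and 0.223 in KO+OE cells, so that the SMC3 mRNA was listed below that of its partner in every library (exact two-sided permutation test between the groups, p = 0.667, adjusted p = 0.933 over 7 pairs). SMC3 shares an exact run of 176 bases with its pseudogene SMC3P1, longer than a read of 150 bases, and SMC3P1 itself did not exceed 0.28 TPM.

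RAD21 (ENSG00000164754) encodes the kleisin that separase cuts at anaphase. It measured 4.49 and 5.76 TPM among controls, against 4.88 and 4.59 TPM for KO+OE. The KO+OE values lay between the 2 control values. The log2 fold change was -0.09 (-0.46 to 0.29, adjusted p = 0.981). The ratio of RAD21 to SMC3 varied little, at 4.05 and 4.11 in control and 3.81 and 4.37 in KO+OE cells (exact two-sided permutation test on log2 ratios, p = 1.0, adjusted p = 1.0 over 7 pairs).

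The meiotic counterpart of RAD21, REC8, was listed at a higher level than RAD21 in all 4 libraries. REC8 had 15.0 and 15.5 TPM in control and 15.9 and 15.2 TPM in KO+OE cells, 2.68 to 3.35 times the level of RAD21 in the same library. It made up 72.9% to 77.0% of the TPM of the pair. The groups overlapped, with a log2 fold change of 0.03 (-0.16 to 0.21, adjusted p = 0.989). The canonical exons of REC8 share 36 bases with annotated exons of IPO4 on the opposite strand, a gene with a mean of 73.4 TPM, and whether the counting used strand is not given in the sources used here. The germ line paralogs of RAD21 and SMC1A other than REC8 were near 0, with RAD21L1 at 0.06 TPM in control replicate 1 and at 0 elsewhere, and SMC1B at 0.01 TPM in control replicate 2 and at 0 elsewhere. CTCFL, the testis paralog of CTCF, measured 0.33 and 0.63 TPM among controls, against 0.39 and 0.37 TPM for KO+OE.

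STAG1 and STAG2 are alternative subunits that bind RAD21 in mitotic cells, and STAG3 is their meiotic paralog. The 3 coding sequences shared as their longest common protein stretch 28 residues encoded by different bases, and the 84 bases of that run are shown because reads from them differ between the genes although the protein does not. Capitals mark the 27 positions at which the 3 sequences are not all alike. STAG1 (ENSG00000118007, chr3:136336236-136752378, GRCh38) is shown for codons 204 to 231, STAG2 (ENSG00000101972, chrX:123960560-124102656, GRCh38) for codons 201 to 228 and STAG3 for codons 217 to 244. G or C made up 42, 36 and 48 of the 84 bases, in that order.
STAG1: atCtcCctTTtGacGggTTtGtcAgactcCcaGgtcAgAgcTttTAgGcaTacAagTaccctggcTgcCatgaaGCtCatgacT
STAG2: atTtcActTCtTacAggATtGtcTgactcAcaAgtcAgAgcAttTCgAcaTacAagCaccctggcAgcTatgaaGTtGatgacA
STAG3: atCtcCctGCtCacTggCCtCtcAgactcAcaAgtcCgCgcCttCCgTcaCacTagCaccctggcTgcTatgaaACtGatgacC

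STAG2 measured 0.74 and 1.09 TPM among controls, against 1.37 and 1.08 TPM for KO+OE. Its groups overlapped, with a log2 fold change of 0.22 (-0.31 to 0.74, adjusted p = 0.953). Leaving out control replicate 1 gave 0.09 and control replicate 2 gave 0.35, and pseudocounts of 0.1 and 5 gave 0.40 and 0.07. STAG1 measured 0.28 and 0.13 TPM among controls, against 0.40 and 0.22 TPM for KO+OE. Its groups overlapped, with a log2 fold change of 0.12 in the fit without a filter (-0.21 to 0.45, adjusted p = 0.876). This value fell to 0.03 without control replicate 2 and to 0.02 without KO+OE replicate 1, and was 0.21 to 0.22 without either of the others. STAG2 lay above STAG1 in every library, with ratios of 2.64 and 8.38 in control and 3.43 and 4.91 in KO+OE cells (exact two-sided permutation test, p = 1.0, adjusted p = 1.0 over 7 pairs), and made up 72.5% to 89.3% of the TPM of the pair. Of the canonical exons of STAG1, 1661 bases are shared with annotated exons of PCCB on the opposite strand, a gene with a mean of 61.9 TPM.

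STAG3 was listed above both mitotic STAG genes in all 4 libraries. It had 5.18 and 3.27 TPM in control and 3.30 and 4.36 TPM in KO+OE cells, which overlapped (log2 fold change -0.10, interval -0.68 to 0.49, adjusted p = 0.988). It made up 65.1% to 83.5% of the TPM of the 3 STAG genes. Its transcript shares exact runs of 142 bases with each of STAG3L1, STAG3L2 and STAG3L3, which had means of 8.83, 4.11 and 6.11 TPM. Its canonical exons share 1027 bases with the antisense CASTOR3P and 462 bases with the protein-coding ENSG00000292277 on the same strand. The level of STAG3 is therefore uncertain, as is that of STAG1 with its overlap with PCCB. The longest run shared by STAG1 and STAG2 was 21 bases.

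**Figure D3:**
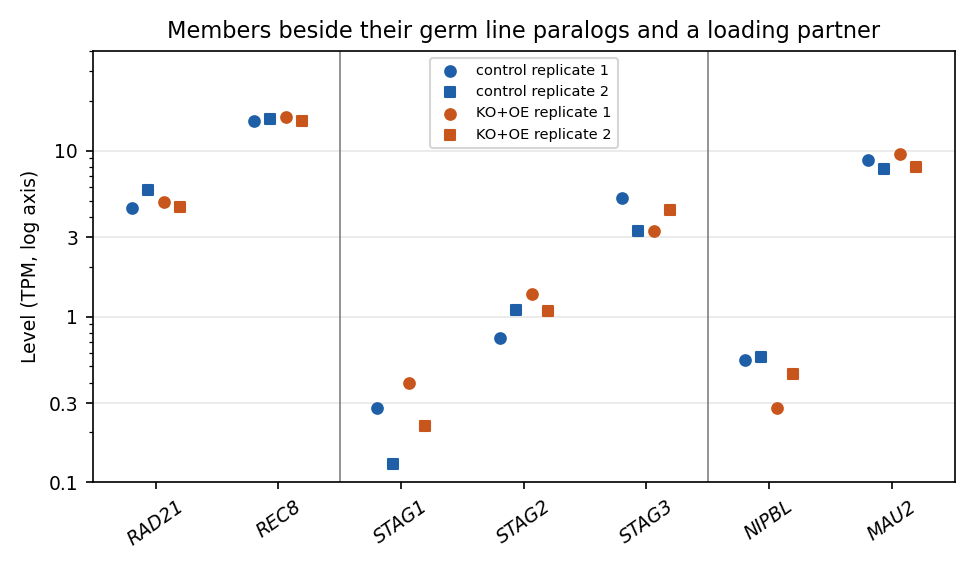
Level in TPM (log axis) in each library (blue, control; orange, KO+OE) of RAD21 beside REC8, of STAG1 and STAG2 beside STAG3, and of NIPBL beside its loading partner MAU2. REC8, STAG3 and MAU2 lie above their partners in all 4 libraries.

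NIPBL (ENSG00000164190, chr5:36876769-37066413, GRCh38), the cohesin loader, measured 0.55 and 0.57 TPM among controls, against 0.28 and 0.45 TPM for KO+OE. Both KO+OE libraries lay below both control libraries. Of all genes tested, 19.6% were lower without overlap, and that share was not counted for genes under 1 TPM such as NIPBL. In the fit without a filter the log2 fold change of TPM + 1 was -0.20 (-0.53 to 0.14, adjusted p = 0.873). Leaving out KO+OE replicate 1 gave -0.11 and leaving out KO+OE replicate 2 gave -0.29, and the pseudocount understates changes at such low values. MAU2, which binds NIPBL and is needed for loading, measured 8.78 and 7.79 TPM among controls, against 9.60 and 7.98 TPM for KO+OE. The ratio of NIPBL to MAU2 was 0.0626 and 0.0732 in control and 0.0292 and 0.0564 in KO+OE cells. These ratios did not overlap, with a difference of -0.74 on the log2 scale (exact two-sided permutation test, p = 0.333, the smallest this design can give; adjusted p = 0.933 over 7 pairs). Without KO+OE replicate 1 the difference was -0.26.

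WAPL (ENSG00000062650, chr10:86435256-86521792, GRCh38), which opens the ring, measured 1.26 and 1.07 TPM among controls, against 1.33 and 1.0 TPM for KO+OE. Both group means were 1.17 TPM, and the log2 fold change was -0.00 (-0.49 to 0.49, adjusted p = 0.997). The release factor lay above the loader in every library, with a ratio of WAPL to NIPBL of 2.29 and 1.88 in control and 4.75 and 2.22 in KO+OE cells. The groups overlapped in this ratio (exact two-sided permutation test, p = 0.667, adjusted p = 0.933 over 7 pairs).

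PDS5A (ENSG00000121892, chr4:39822863-39977911, GRCh38) and PDS5B (ENSG00000083642, chr13:32586452-32778019, GRCh38) are paralogs that can each stabilize or help to release cohesin. Their coding sequences shared as their longest common protein stretch 39 residues, shown here because reads from it still separate the 2 genes. Capitals mark the 25 of 117 bases that differ between them, in codons 344 to 382 of PDS5A and 334 to 372 of PDS5B, exons 10 to 11 of both canonical transcripts. The longest run that the 2 whole transcripts share was 20 bases, well below the read length.
PDS5A: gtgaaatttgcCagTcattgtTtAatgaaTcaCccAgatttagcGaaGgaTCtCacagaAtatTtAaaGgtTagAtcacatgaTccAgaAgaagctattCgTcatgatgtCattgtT
PDS5B: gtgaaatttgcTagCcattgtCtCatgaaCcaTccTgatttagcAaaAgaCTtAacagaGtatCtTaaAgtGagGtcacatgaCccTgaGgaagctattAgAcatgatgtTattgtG

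PDS5A measured 1.17 and 2.35 TPM among controls, against 1.18 and 0.88 TPM for KO+OE. Control replicate 2 stood apart from the other 3 libraries, and the groups overlapped. The log2 fold change was -0.41 (-1.10 to 0.27, adjusted p = 0.938), with an interval wider than that of any other tested member. It was -0.73 without control replicate 1, then at an unadjusted p under 0.05, and -0.10 without control replicate 2. The pseudocount also moved it, to -0.66 with 0.1 and -0.16 with 5. The high value corresponds to an estimated 331 sequenced fragments, against 146 to 176 in the other libraries. PDS5B measured 0.25 and 0.25 TPM among controls, against 0.24 and 0.39 TPM for KO+OE. These overlapped, with a log2 fold change of 0.07 in the fit without a filter (-0.19 to 0.33, adjusted p = 0.897). The ratio of PDS5B to PDS5A was 0.214 and 0.106 in control and 0.203 and 0.443 in KO+OE cells, which overlapped (exact two-sided permutation test, p = 0.667, adjusted p = 0.933 over 7 pairs).

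CTCF (ENSG00000102974, chr16:67562526-67639177, GRCh38) was the most precisely measured of the 10 genes. It measured 10.73 and 10.99 TPM among controls, against 11.22 and 11.14 TPM for KO+OE. The KO+OE values lay above the control values by little, with a log2 fold change of 0.04 (-0.16 to 0.24, adjusted p = 0.988). The half-width of this interval was 0.20, against a median of 0.25 for genes that averaged 5 to 50 TPM. The ratio of CTCF to RAD21 was 2.39 and 1.91 in control and 2.30 and 2.43 in KO+OE cells, which overlapped (exact two-sided permutation test, p = 0.667, adjusted p = 0.933 over 7 pairs). Over the 4 libraries, the genes outside the lists whose values lay nearest to those of CTCF were PAGR1, CHPT1 and DIRAS1, with root mean square differences of 0.022, 0.027 and 0.029 on the log2 scale.

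The intervals of the remaining tested members were wider. Their half-widths were 0.37 for RAD21, 0.40 for SMC1A, 0.48 for SMC3, 0.49 for WAPL and 0.52 for STAG2, with a median of 0.47 for all genes that averaged 1 to 5 TPM. That of PDS5A was 0.69. The low values of genes with 1 annotated transcript were set against whole multiples of a smallest step, which depends on transcript length. The step was fitted per library to maximize the share of values within 0.006 TPM of a multiple, less the width of that tolerance. At the fitted step that share was 73.0% to 75.2%, where 13.7% to 14.2% would be covered by the width alone. Being a fitted maximum, the share is not a test of the step. The fitted step gave an estimated 28700000 to 33500000 fragments per library. If the canonical transcript length applies, CTCF rested on an estimated 802 to 959 fragments per library, SMC1A on 611 to 1072, NIPBL on 62 to 120 and STAG1 on 15 to 50. The relative counting error of the shallowest library was then 3.53% for CTCF and 25.4% for STAG1, which covers counting only and no other source of error.

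The order of the members ran in part with the base composition of their transcripts. CTCF and SMC1A had the highest GC content, 47.4% and 47.0%, and lay among the 3 highest levels. PDS5B, STAG2 and SMC3 had the lowest, 36.4%, 36.6% and 37.3%. Other members departed from that order. RAD21 and STAG1 had nearly the same GC content, 40.3% and 40.2%, at means of 4.93 and 0.258 TPM. NIPBL, with 39.4%, lay below STAG2 and SMC3 in level. Across the 10 genes within a library, the Spearman correlation between TPM and GC content was 0.54 to 0.81, and between TPM and transcript length -0.58 to -0.39, over points that share a library and are not independent. Over 53 genes, namely the members with the wider lists described next and the germ line paralogs, the correlation with GC content was 0.83 to 0.85. Over the 17056 protein-coding genes with a value above 0 it was 0.28 to 0.29.

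Set against protein-coding genes of similar GC content with a value above 0 in any library, the members were not uniformly low. The median level was 0.675 TPM for 1291 genes whose GC content did not exceed 38%, and 2 of the 3 members there (STAG2 and SMC3) had a mean above it. It was 0.941 TPM for 2586 genes between 38% and 42%, and 3 of the 5 members there (RAD21, PDS5A and WAPL) lay above it. It was 2.86 TPM for 2187 genes between 46% and 50%, and both members there lay above it. The germ line paralogs REC8 and STAG3, listed above their mitotic counterparts, had a GC content of 58.7% and 53.4%, and MAU2, listed above NIPBL, had 57.2%. The part of GC content in these differences of level was not tested.

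**Figure D4:**
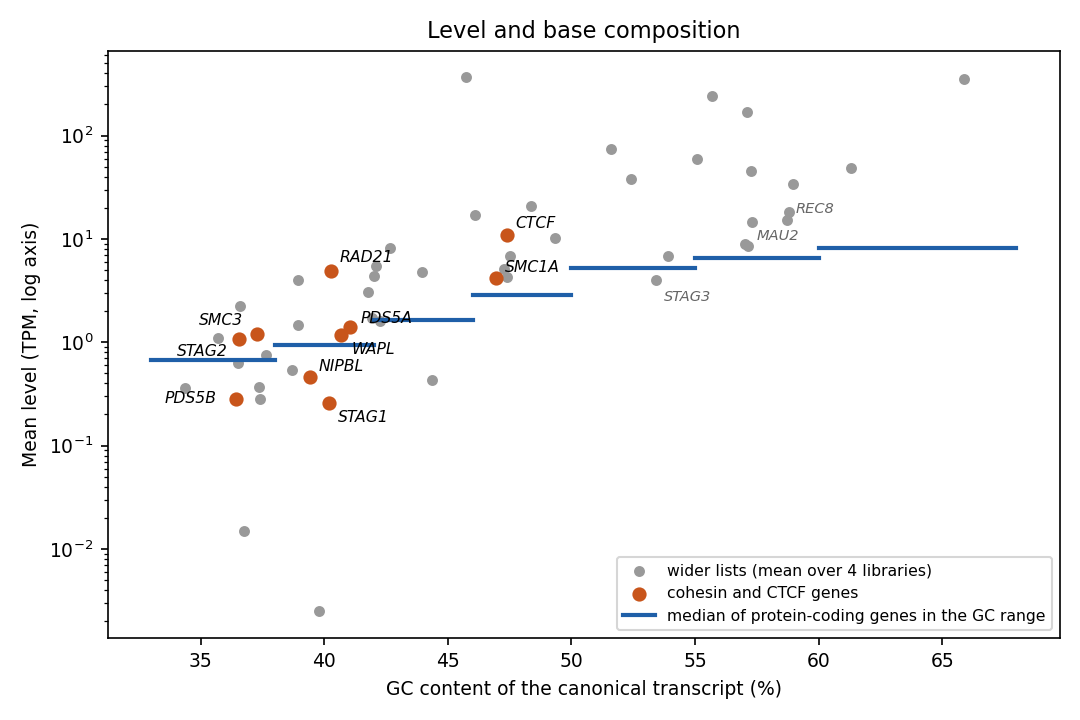
Mean level over the 4 libraries in TPM (log axis) against the GC content of the canonical transcript in percent. Orange points are the 10 members, and grey points the genes of the wider lists and germ line paralogs. Blue lines are the median, in each GC range, of protein-coding genes with a value above 0 in any library. The medians rise from 0.675 TPM at up to 38% GC to 8.18 TPM above 60% GC, and CTCF and SMC1A lie to the right of the other members.

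Of 9 genes that load, acetylate, protect or otherwise regulate cohesin, 7 were tested and 0 were called or had an unadjusted p under 0.05. The shares over all genes tested by limma were 0.00812% called and 5.33% at that unadjusted p. The groups overlapped for all 7. CDCA5, which encodes sororin, an antagonist of WAPL in dividing cells, was the highest at 59.0 and 58.9 TPM in control and 61.8 and 55.7 TPM in KO+OE cells. HASPIN, a kinase that marks centromeric histone H3, had the largest change among those tested, at 6.83 and 6.32 TPM in control and 6.18 and 7.90 TPM in KO+OE cells (log2 fold change 0.08, interval -0.28 to 0.44, adjusted p = 0.985). Of 6 genes that act at mitosis, all were tested and 0 were called or had an unadjusted p under 0.05. Of the 6, BUB1 was higher without overlap and 0 were lower, against 14.5% and 19.6% of all genes tested. PTTG1, which encodes securin, the inhibitor of separase, was the highest at a mean of 365 TPM. ESPL1, which encodes separase, had 9.72 and 7.17 TPM in control and 9.52 and 9.14 TPM in KO+OE cells (log2 fold change 0.14, interval -0.25 to 0.53, adjusted p = 0.960).

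Condensin and the SMC5/6 complex are related rings with their own SMC ATPases. Of their 14 genes, 10 were tested, 0 were called and 2 had an unadjusted p under 0.05. These were NCAPD3, at 5.33 and 6.49 TPM in control and 4.63 and 3.98 TPM in KO+OE cells (log2 fold change -0.38, adjusted p = 0.928), and NSMCE4A, at 21.4 and 22.7 TPM in control and 19.8 and 19.0 TPM in KO+OE cells (log2 fold change -0.18, adjusted p = 0.931). Both KO+OE libraries lay below both control libraries for these genes. NSMCE1 was the only tested gene of the list that lay higher without overlap. Over all genes tested, 5.33% had an unadjusted p under 0.05 by limma, and 19.6% were lower and 14.5% higher without overlap. Levels within this list also spread widely, from a mean of 0.365 TPM for the ATPase SMC2 to 74.2 TPM for the condensin subunit NCAPD2, a range of 203-fold, against 42.8-fold among the 10 members.

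Of 9 proteins that act at chromatin loops or beside CTCF, all were tested, 0 were called and 1 had an unadjusted p under 0.05. That was TOP2A, the topoisomerase of dividing cells, at 4.81 and 4.44 TPM in control and 3.20 and 3.40 TPM in KO+OE cells (log2 fold change -0.39, interval -0.70 to -0.07, adjusted p = 0.928). Its KO+OE values lay below the control values, as did those of CHD8, and those of LDB1 lay above. The shares over all genes tested were 5.33% at that unadjusted p, 19.6% lower without overlap and 14.5% higher without overlap. MAZ, a zinc-finger protein, was the highest of this list at a mean of 356 TPM. The median log2 fold changes of the 4 lists were -0.01, 0.03, 0.02 and -0.06, in the order given here. With 1 library left out they ranged from -0.05 to 0.07, 0.01 to 0.07, -0.06 to 0.04 and -0.09 to 0.03, so that the sign changed for all but the mitotic list.

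**Figure D5:**
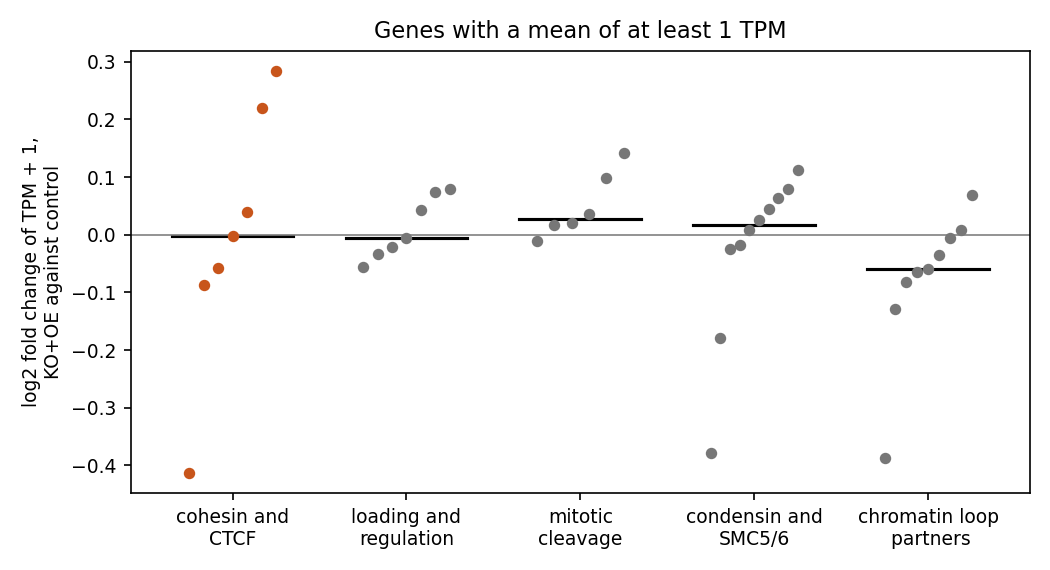
Log2 fold change of TPM + 1 in KO+OE against control cells for each tested gene (points) of the members and the 4 wider lists, with the median of each list (black line). Points of the members spread from -0.41 for PDS5A to 0.28 for SMC1A around a median of -0.00.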

How the data were processed

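Poly(A)+ RNA was sequenced as paired reads of 150 bases. Per the labels, HISAT2, featureCounts, Subread, DESeq2 and build hg38 were used, with no versions or roles. The authors deposited 1 value per gene and library. The header names no unit, and the deposited values were read as TPM from their common column totals. They are rounded to 2 decimals, and read counts were not used here. Groups and replicate numbers came from the sample titles.

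Genes averaging 1 TPM or more were compared on log2(TPM + 1) with limma 3.58.1 in R 4.3.3 (mean-dependent prior, group as the only term, two-sided), with Benjamini-Hochberg adjustment over all 12319 genes. The limma fit was tested on simulated data with changes larger than that of any member. Ratios and sums were compared by exact permutation. The members and lists were chosen with earlier results of these data known. Named were all members, NUDT21, MAU2 and the germ line paralogs. Of each list, the highest gene, that with the largest change and those at an unadjusted p under 0.05 were also named. So were tested genes of the wider lists whose groups did not overlap. Length, GC content and sequences came from canonical transcripts of GENCODE release 44 on GRCh37, matched by Ensembl identifier for 53 of 53 listed genes, and gene positions from RefSeq on GRCh38. Alternatives were pseudocounts of 0.1 and 5, no filter, a mean of at least 5 TPM, median-ratio rescaling, quantile normalization, no mean-dependent prior, a replicate block and leaving out each library. Tables were made with pandas 2.3.3 and permutations with scipy 1.17.1, under Python 3.11.15.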

Additional observations from a re-analysis of the deposited data

How the results depend on the processing

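Low values limit NIPBL, PDS5B and STAG1 most. No member had an adjusted p under 0.873 in any of 80 fits of a member under an alternative. The direction changed for SMC3, which was 0.035 without control replicate 2 and 0.019 without KO+OE replicate 2, for RAD21, which was 0.063 without control replicate 2, for PDS5B, which was -0.012 without KO+OE replicate 2, and for WAPL, which was 0.0037 with median-ratio rescaling, 0.061 without control replicate 1 and 0.11 without KO+OE replicate 2, all as log2 fold changes. Across the left-out libraries, RAD21 ranged from -0.24 to 0.063, SMC3 from -0.15 to 0.035, WAPL from -0.11 to 0.11 and PDS5B from -0.012 to 0.15, and 0 to 2 members had an unadjusted p under 0.05. Of all genes, 0 were called with a pseudocount of 0.1 or 5, no filter, a mean of at least 5 TPM, quantile normalization or the replicate block, and 0 to 9 with 1 library left out, the 9 without control replicate 2. The number at an unadjusted p under 0.05 was 1314 without a filter, among 26942 genes, and 412 with a mean of at least 5 TPM. Where a group keeps 1 library, that library is assumed to vary like the other group. A fit that treats same-numbered libraries as pairs (replicate block) was made for the 7 tested members, whose log2 fold changes it cannot move in this balanced design. It gave 0 calls and 673 genes at an unadjusted p under 0.05, and SMC1A an adjusted p of 0.877. Same-numbered libraries did not deviate together (correlation -0.05), so that the numbers were not taken as pairing.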

Other observations

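The clustered protocadherins are neuronal adhesion genes whose promoters are known to depend on CTCF and cohesin. By name, 59 were found in the table, pseudogenes included, and 1 of these, the pseudogene PCDHGB9P, was listed at 0 in all libraries. Of the 59, 14 had a mean of at least 1 TPM. Of these 14, 0 were called and 0 had an unadjusted p under 0.05 by limma, against 0.00812% and 5.33% of all genes tested. Without overlap, 3 were higher and 1 was lower, against 14.5% and 19.6%. In the fit without a filter, 2 of the 59 had an unadjusted p under 0.05, as did 1314 of 26942 genes. The summed level of the 59 was 59.5 and 66.8 TPM in the control libraries and 63.8 and 61.0 TPM in the KO+OE libraries, which overlapped. PCDHB5 was the highest, at 11.3 and 12.7 TPM in control and 11.6 and 12.2 TPM in KO+OE cells. PCDHB3 had the largest change, at 0.57 and 0.55 TPM in control and 0.80 and 2.32 TPM in KO+OE cells (log2 fold change 0.65, interval -0.21 to 1.5), with KO+OE replicate 2 well above the other 3 libraries. Genes of the alpha and gamma clusters share constant exons, so that their separate levels are uncertain.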
